A study of Caenorhabditis elegans with 2 samples.

Results

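Homeobox genes encode transcription factors that share the homeodomain, a DNA-binding fold. They were taken here as every C. elegans gene named ceh followed by a number, 63 genes, together with 22 homeobox genes of other names, among them unc-42. These 85 genes are of 19985 protein-coding genes in the annotation. A binding region was given to a homeobox gene when its summit, the position of highest enrichment, had that gene's 5′ end as the nearest one among protein-coding genes and lay within 5000 bp of it. By this rule 47 of the 85 genes held 82 candidate regions, out of 10969 candidate regions given to any gene, and none of the 82 was in the list of reproducible regions on the ce11 build.

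The regions come from chromatin immunoprecipitation followed by sequencing (ChIP-seq) of FAX-1, a nuclear receptor transcription factor. The single group was strain OP164, in which hermaphrodites stably carried a transgene for FAX-1 with a GFP-FLAG tag at its C-terminus. Late embryos were collected 4 h after synchronization by egg bleaching, and whole organisms were precipitated with an antibody against GFP in 2 biological replicates. No untagged strain, other stage or other factor was analysed here, and signal from whole embryos does not separate cell types.

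Homeodomain factors work in combinations. The Hox genes among them set position along the body axis, whereas many others act as selectors that hold a neuron in its type by switching on its receptors, transmitters and adhesion proteins. In the command interneurons, which drive locomotion, fax-1 and the paired-like homeobox gene unc-42 are both known from mutants to control cell identity and axon growth, and unc-42 is needed there for the glutamate receptor gene glr-1. Whether FAX-1 occupied DNA near homeobox genes is the question these regions address.

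These windows are shown because they belong to the strongest candidate regions at homeobox genes, and they are read 5′ to 3′ on the strand of the gene. Each but that of ceh-38 is of 151 bp centred on its summit. The one of ceh-38 is limited to the 65 bp before the annotated start. Its summit, 10 bp downstream of that start, is not in the printed stretch. Coordinates are of WBcel235, which is ce11, in the order chrV:9769483-9769633 on the minus strand for unc-42, chrII:6951461-6951525 on the plus strand for ceh-38, chrX:1856320-1856470 on the minus strand for ceh-39, chrIII:7812412-7812562 on the plus strand for egl-5 and chrII:10373662-10373812 on the minus strand for ceh-58. Capitals mark matches to any of 5 short sequences searched on both strands. These were AAGTCA, the hexamer recognised by PNR, the human nuclear receptor related to FAX-1, and AGGTCA, the general nuclear receptor hexamer. TAATTA is the core bound by many homeodomains. GATA factors bind TGATAA, and the fifth was GAGAGA, a GA repeat. The homeodomain and GATA matches overlap each other in the ceh-58 window.
unc-42: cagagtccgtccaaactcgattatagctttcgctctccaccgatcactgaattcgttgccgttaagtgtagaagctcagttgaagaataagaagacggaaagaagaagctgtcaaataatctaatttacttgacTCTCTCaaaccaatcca
ceh-38: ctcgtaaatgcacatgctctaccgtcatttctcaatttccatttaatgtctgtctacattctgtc
ceh-39: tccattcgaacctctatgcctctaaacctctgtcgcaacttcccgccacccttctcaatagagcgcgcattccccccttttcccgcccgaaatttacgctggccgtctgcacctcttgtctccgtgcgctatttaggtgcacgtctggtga
egl-5: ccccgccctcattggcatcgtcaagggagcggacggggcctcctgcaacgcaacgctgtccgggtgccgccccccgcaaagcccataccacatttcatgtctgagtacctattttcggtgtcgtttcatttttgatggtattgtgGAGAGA
ceh-58: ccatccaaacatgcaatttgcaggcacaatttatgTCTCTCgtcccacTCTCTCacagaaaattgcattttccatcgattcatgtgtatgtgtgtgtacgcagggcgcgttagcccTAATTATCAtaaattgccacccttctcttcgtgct

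None of the 5 windows held either of the nuclear receptor hexamers. The window of unc-42 held 1 GAGAGA on the opposite strand, 59 bp downstream of its summit, and the ceh-39 window held no match to any of the 5.

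Before the results for single genes, the scale of the values has to be given. Each replicate had a loosely filled list of peaks and background, of 15446 rows in replicate 1 and 18555 in replicate 2, and the pooled replicates had a list of 13841 rows. Signal is the deposited peak value of each row, and the sources used here do not define it further. It has its own floor in each list: 31.6 in the pooled list, 20.95 in replicate 1 and 12.7 in replicate 2. Replicates are therefore set side by side by rank, where rank 1 is the strongest row. The authors' final list of 830 rows passed the irreproducible discovery rate (IDR), a measure of agreement between replicates, and its lowest pooled signal was 98.3. Its length gives the rank of 830 used below as the mark of the strongest rows in each replicate. A candidate below that mark may be background, and no file used here states how many reads lie behind a signal.

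Homeobox genes held candidates more often than the average gene, but not stronger ones. A candidate was found at 55.3% of homeobox genes, against 38.4% of all nuclear protein-coding genes. The stretch of DNA for which a homeobox gene was the nearest start averaged 6.10 kb, longer than the 4.31 kb of all genes. Per 100 kb of such stretches the homeobox genes had 15.8 candidates and all genes had 12.7. How far this longer stretch accounts for the count was not tested beyond that rate. The median signal of the 82 regions was 40.04, beside 40.7 for all assigned candidates and 138.3 for the final regions among them. With only the strongest region of each gene, the median was 47.0 for homeobox genes and 43.2 for all genes with a candidate. Regions with a signal of at least 80 were 5 of 82, or 6.10%, against 9.74% of all candidates.

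No homeobox gene held a final region, whereas 3.5% of all genes did. A count of 0 among 85 genes allows a share of up to about 3.53%, an approximate limit on the upper side only. This lies so close to the 3.5% of all genes that the count cannot decide whether the shares differ. Of all candidate regions 6.59% were final, and 0 of the 82 allows up to about 3.66% by the same approximation, although regions at the same gene are not independent. This limit, like every interval given here, covers counting error only. Among the 830 strongest rows of replicate 1 was 1 of the 82 regions, that of ceh-38, against 6.59% of all candidates. Among those of replicate 2 was also 1, that of unc-42, against 6.47%.

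**Figure D1:**
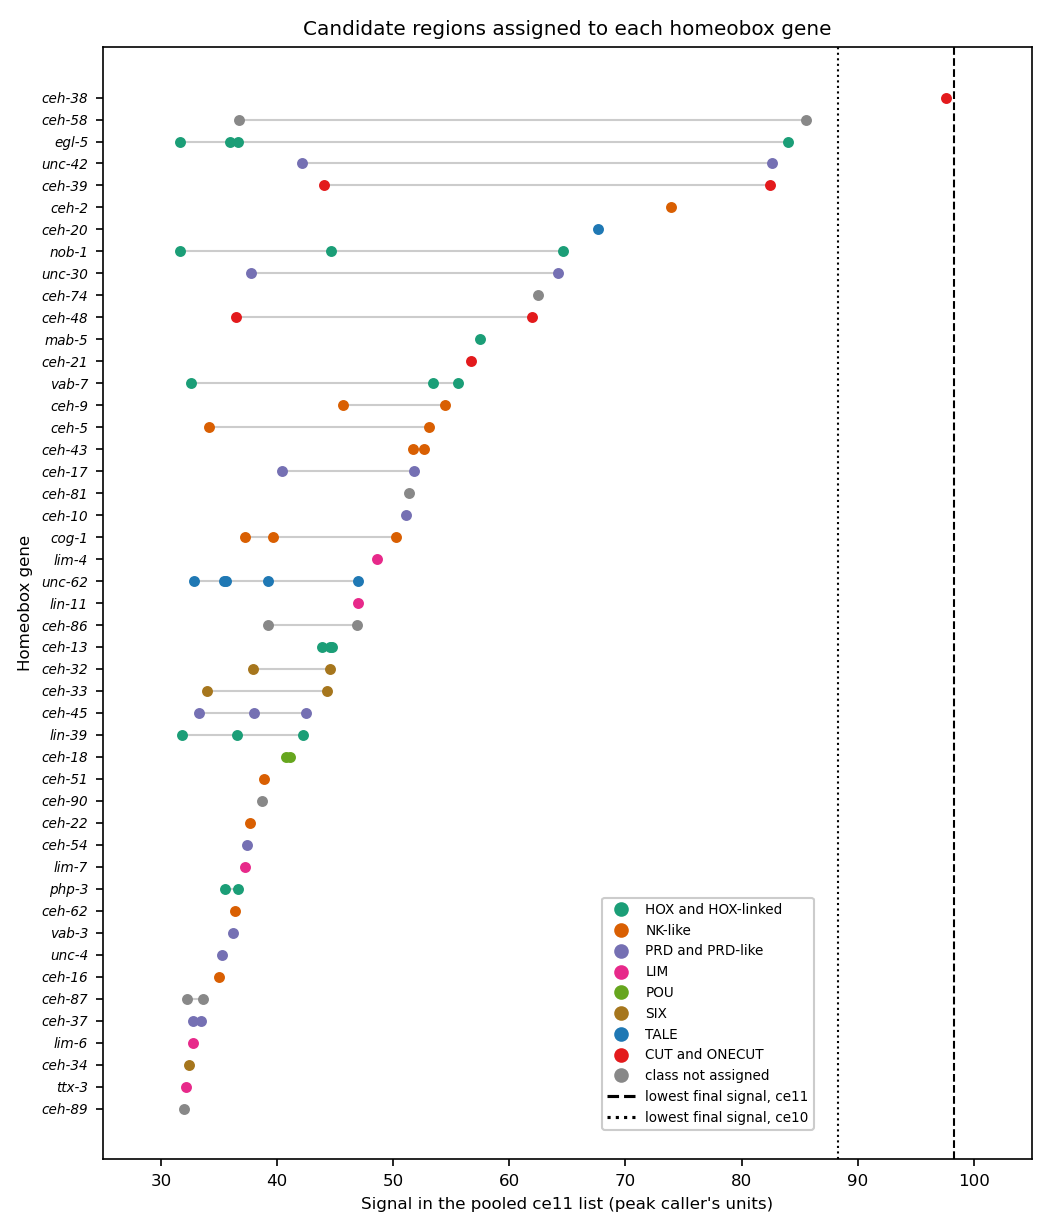
Pooled signal of each candidate region (points, joined by a line within a gene) at the 47 homeobox genes that held any, ordered by the strongest region and coloured by homeobox class. The dashed line is the lowest signal of the final list on ce11, 98.3, and the dotted line that on ce10, 88.3; every point lies left of the dashed line and ceh-38, at 97.6, lies closest to it.

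The strongest region at any homeobox gene was at ceh-38, a ONECUT gene, and it stopped just short of the final list. The region, on chromosome II from 6951318 to 6951753, had a pooled signal of 97.6, with 71.3 in replicate 1 and 21.7 in replicate 2. These placed it at rank 655 in replicate 1 and rank 3892 in replicate 2, so the replicates differed in where it stood. Its summit lay 10 bp downstream of the ceh-38 start, in the 5′ UTR, and 236 bp from the start of malt-1. A region this close to both starts cannot be told apart between the genes. At pooled rank 839, it missed the ce11 final list by 9 ranks and by 0.689 units of signal. The authors' ce10 list was longer, with 999 rows and a floor of 88.3, and it did include this region, which was the only homeobox region matched there.

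At unc-42 the strongest region sat at the promoter, with a summit 167 bp upstream of the start. It spanned chromosome V from 9769340 to 9769775, and the next nearest start, that of F46B6.2, was 2727 bp from the summit. Its pooled signal was 82.6, with 34.7 in replicate 1 and 46.7 in replicate 2. Rank 535 in replicate 2 was among that replicate's strongest 830, whereas rank 3500 in replicate 1 was far from it. The pooled rank was 1137. The order of the replicates was thus the reverse of that at ceh-38, and neither promoter was among the strongest rows of both. A second unc-42 region lay in an intron 1607 bp downstream of the start, at a pooled signal of 42.2 and ranks of 9658 and 14932.

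Genes tied to unc-42 or fax-1 in command interneurons or the AVK neuron were looked at beside it: 6 glutamate receptor genes, flp-1, ncs-1 and fax-1 itself. Of these 9 genes 3, or 33.3%, held a candidate, against 38.4% of all genes, and 0 held a final region, against 3.5%. Of the 6 receptor genes 2 held a candidate. The region of glr-1, an AMPA-type glutamate receptor subunit gene, lay 270 bp upstream of its start with a signal of 67.0 and ranks of 2465 and 1651. That of glr-2, a second subunit gene, lay 213 bp upstream with a signal of 51.2 and ranks of 7072 and 5801. For flp-1, a neuropeptide gene, the summit was 96 bp downstream with a signal of 37.4 and ranks of 4740 and 10074. Ranks at glr-1 were thus closer to each other than those at unc-42. The NMDA-type receptor genes nmr-1 and nmr-2, glr-4, glr-5, ncs-1 and fax-1 itself had no candidate within the distance used.

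The Hox genes all held candidates, 6 of 6, against 38.4% of all genes, and together they had 16 regions, 19.5% of the homeobox total. The stretch nearest to a Hox start averaged 8.96 kb, against 4.31 kb for all genes. Their rate was 29.8 regions per 100 kb, against 14.2 for the other homeobox genes and 12.7 for all genes. Among the classes described below, sine oculis genes had 25.8, TALE genes 23.6, CUT and ONECUT genes 20.9 and POU genes 8.50. The Hox rate is of the pooled list and was not computed for each replicate. More of the 16 regions were found in replicate 1 alone than in both replicates. Among all candidates these shares were 27.5% and 50.1%. In the replicates' own lists egl-5 had 4 peaks in replicate 1 and 1 in replicate 2. For ceh-13 and for lin-39 these counts were 3 and 1. They were 3 and 3 for nob-1, 1 and 1 for mab-5, and 1 and 2 for php-3. The median signal of the 16 regions was 39.5, beside 40.7 for all candidates. The strongest belonged to egl-5, the posterior Hox gene of the Abdominal-B type. Its summit was 1887 bp upstream of the start, with a pooled signal of 84.0 and replicate signals of 58.4 and 24.9. Both replicates placed it well up the list, at ranks 1003 and 2551. The remaining 3 egl-5 regions had signals of 31.6 to 36.6, and none of them was found in replicate 2.

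For nob-1, which with php-3 patterns the posterior embryo, the strongest region was in an intron 2127 bp downstream of the start. It had a signal of 64.6 and ranks of 4717 and 1703. The 2 regions of php-3 had signals of 36.7 and 35.5, the first found in replicate 1 alone and the second in replicate 2 alone. For mab-5, which acts in posterior cell migration and fate, a single region lay 1016 bp upstream with a signal of 57.5 and ranks of 2045 and 2806. At lin-39, a mid-body Hox gene that acts in vulval development, the 3 regions reached 42.3, and 1 of them was found in both replicates. At ceh-13, the anterior Hox gene related to labial, the 3 regions had signals of 43.9 to 44.8, and again 1 was found in both.

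**Figure D2:**
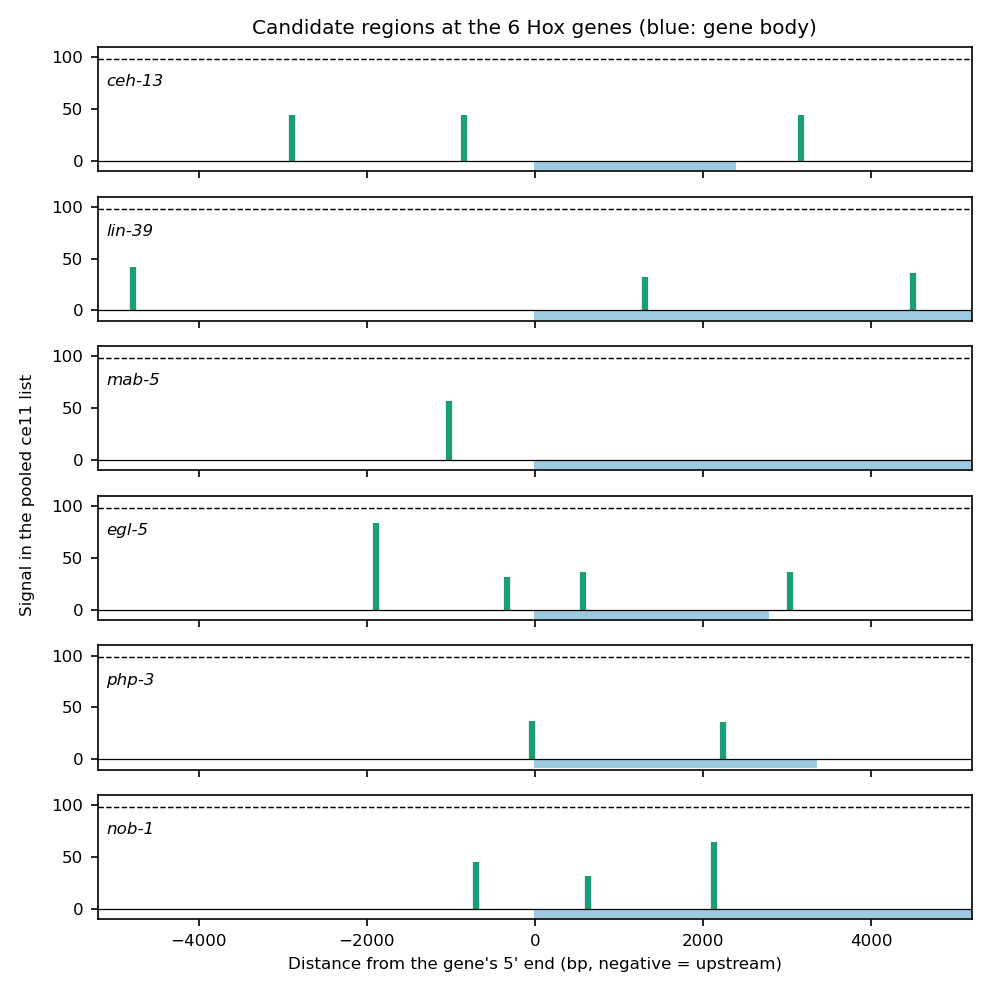
Candidate regions at the 6 Hox genes, each drawn as a bar at the distance of its summit from the gene's 5′ end (x axis, bp, negative is upstream) with its pooled signal as height (y axis). Blue strips are gene bodies, which for lin-39, mab-5 and nob-1 run past the right edge, and the dashed line is the lowest signal of the final list; the bar of egl-5 at 1887 bp upstream is the tallest, at 84.0.

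Genes linked to Hox function lay in the same range. The even-skipped relative vab-7, which acts in posterior patterning and in motor neurons, had 3 regions. The strongest was in an intron 3172 bp downstream of the start, with a signal of 55.6 and ranks of 2627 and 1234. The second, at 53.4 in an intron 1561 bp downstream, had ranks of 14561 and 1439, so that only replicate 2 placed it high. The caudal relative pal-1 held no candidate. Of the TALE class, whose proteins bind DNA together with Hox proteins, 2 of 4 genes held regions. The Pbx relative ceh-20 had a single region 1068 bp upstream with a signal of 67.6, 43.9 in replicate 1 and 25.5 in replicate 2. Its ranks of 1878 and 2362 were close to each other. The Meis relative unc-62, named after its values were seen, held 5 regions, more than any other homeobox gene, with signals of 32.8 to 47.0.

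The CUT and ONECUT genes had the highest class median. Their 6 regions, at 4 of 6 genes, had a median signal of 59.3, above the 40.04 of all homeobox regions, although 6 values give a wide range from 36.4 to 97.6. A further gene placed in this class, ceh-44, matched no symbol of the Ensembl annotation and was left out. Adding it from the RefSeq annotation gave 48 homeobox genes with 85 regions, in place of 47 with 82. The class median was not recomputed with it. After ceh-38, the strongest was ceh-39, an X-linked gene that counts among the signals of X chromosome number in sex determination. Its region lay 223 bp upstream with a pooled signal of 82.4, and with 44.6 in replicate 1 and 34.1 in replicate 2. Ranks of 1800 and 1064 made it the homeobox region whose weaker rank was best. At ceh-48 the region lay 2247 bp upstream with a signal of 61.9 and ranks of 1893 and 2010. At ceh-21, which neighbours ceh-39, it lay in an intron 2027 bp downstream with a signal of 56.7 and ranks of 6129 and 1998. No candidate was found at ceh-41 and ceh-49.

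A final region lay near this pair of X-linked genes without being given to either. Its summit was 2624 bp upstream of the ceh-39 start and 6060 bp upstream of that of ceh-21, with a signal of 164.9. The nearest protein-coding start was that of T26C11.8, at 1926 bp, and a tRNA gene lay 23 bp from the summit. Within 10000 bp of the start, 8 of 85 homeobox genes had a final summit, or 9.41%, against 15.6% of all genes. None of these summits was inside a homeobox gene. For the other strong members, the final summit 7741 bp upstream of ceh-20 lay 110 bp from the start of rfc-4, and that 9043 bp downstream of unc-30 lay 2420 bp from that of B0564.9. The one 4956 bp upstream of ceh-5 was given to eat-16, at 503 bp.

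Paired-like genes held the second largest number of regions, 15 at 9 of 13 genes. After unc-42, the strongest was at unc-30, the Pitx relative that sets the identity of GABA-releasing motor neurons. Its summit was 60 bp downstream of the start, in the 5′ UTR, with a signal of 64.2 and ranks of 2032 and 5579. The Phox2 relative ceh-17 followed with a signal of 51.8 and ranks of 9398 and 2123. Its summit was 1987 bp upstream, in a coding exon of another gene. For ceh-10, which acts with the LIM gene ttx-3 in the AIY interneuron, the signal was 51.1, with ranks of 7094 and 2804. Its summit was 3961 bp upstream, within an intron of another gene. Both ceh-17 and ceh-10 stood higher in replicate 2, and unc-30 stood higher in replicate 1.

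The NK-like genes were the largest class, and 9 of 21 held 14 regions. The strongest, at the Emx relative ceh-2, had a signal of 73.9 and ranks of 1380 and 4444, and its summit 738 bp upstream was inside a tRNA gene. It was the only homeobox region within 500 bp of a tRNA, snoRNA or snRNA gene, 1.22% of 82 against 3.92% of all candidates. At ceh-9 the strongest region had a signal of 54.5, 2331 bp upstream, with ranks of 3405 and 9517. At ceh-5 it had 53.1, 422 bp upstream and within an intron of another gene, with ranks of 2904 and 9800. The Distal-less relative ceh-43 had a pair of regions of nearly equal pooled signal, 52.7 at 2965 bp upstream and 51.7 at 1034 bp upstream. The replicates ordered them oppositely: the former had ranks of 2989 and 17365, and the latter 8291 and 1741.

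LIM, POU and sine oculis genes, which include regulators of neuron identity, held none of the strongest homeobox regions. Their median signals were 37.3, 40.97 and 37.9, beside 40.04 for all homeobox regions. Those of the paired-like and TALE classes, at 37.99 and 37.4, were in the same range. Of 7 LIM genes 5 had a region each, the strongest at lim-4, which sets the identity of the AWB olfactory neurons, with a signal of 48.6 and ranks of 5887 and 10802. The single POU gene with regions was ceh-18, with signals of 41.1 and 40.8. All 3 sine oculis relatives held regions, the strongest at ceh-32 with a signal of 44.6 and ranks of 12598 and 14023. The touch neuron genes mec-3, of the LIM class, and unc-86, of the POU class, had no candidate. No region of the LIM, POU and sine oculis classes reached a pooled signal of 50. Of all homeobox regions 28.0% did, and of all candidates 28.2%.

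For 20 genes named ceh no class was assigned, and 7 of them held 10 regions. The strongest was at ceh-58, 4140 bp upstream of its start, with a pooled signal of 85.6, and with 60.999 in replicate 1 and 26.9 in replicate 2. Ranks of 926 and 2015 put it just outside the strongest 830 rows of replicate 1. At ceh-74 a region 269 bp upstream, within an intron of another gene, had a signal of 62.5 and ranks of 4058 and 1905. The region of ceh-81, with a signal of 51.3 and ranks of 12353 and 1849, lay 914 bp from its start and 915 bp from that of its neighbour ceh-82. Assignment between these neighbours rests on 1 bp.

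Replicate support at homeobox genes was close to that of candidates in general. Both replicates held an overlapping peak at 40 of 82 regions, or 48.8% (95% Wilson interval 38.3 to 59.4), against 50.1% of all candidates. A further 28 regions, or 34.1%, were found in replicate 1 alone and 10, or 12.2%, in replicate 2 alone. Among all candidates these shares were 27.5% and 18.7%. The other 4 regions were found in the pooled list only. With a limit of rank 3000 in both replicates, chosen after the values were seen, 7 regions remained, or 8.54%, against 12.7% of all candidates. They were the strongest regions of ceh-39, ceh-48, ceh-58, ceh-20, egl-5, vab-7 and mab-5, and the weaker of their ranks ran from 1800 to 2806.

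**Figure D3:**
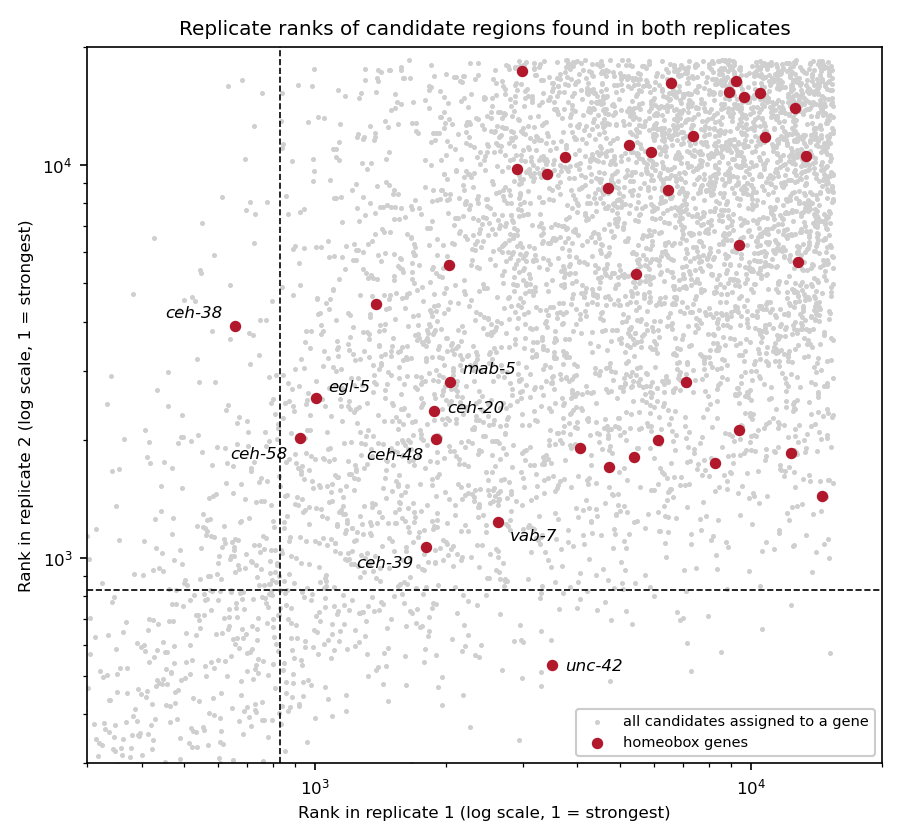
Rank in replicate 1 (x axis, log scale) against rank in replicate 2 (y axis, log scale) for candidates found in both, homeobox regions in red and all assigned candidates in grey, with rank 830 as dashed lines. Both axes leave out the strongest ranks, where no homeobox region lies; ceh-38 at 655 is the single red point left of the vertical line, unc-42 at 535 the single one under the horizontal line, and no red point lies in the corner where both lines are passed.

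Homeobox regions lay farther from gene starts than candidates in general. The median distance of the 82 summits was 1585.5 bp (95% order-statistic interval 1038 to 1987), against 1052 bp for all assigned candidates and 366 bp for the final ones. Within 500 bp of the start lay 14 of 82, or 17.1% (Wilson interval 10.5 to 26.6), against 31.5% of all candidates. With the nearest 5′ end of any transcript in place of the gene start, the medians were 1069.5 and 891 bp, and the shares within 500 bp were 25.6% and 35.4%. With starts of all biotypes, among summits nearest to a protein-coding gene, the medians were 1038 and 747.5 bp, and the shares 22.6% and 39.4%. Medians and shares thus differed in the same direction under both definitions. The difference of the medians was smaller under both. That of the shares was smaller with transcript starts and larger with starts of all biotypes. Upstream summits were 42, or 51.2%, beside 50.5% of all. By annotation 39 summits were intergenic, 29 were in introns and 8 were in coding exons. The intron share was 35.4%, beside 29.2% of all candidates, and the coding exon share was 9.76%, beside 18.1%. The longer stretches of the homeobox genes also allow larger distances, and their part in this difference was not tested.

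**Figure D4:**
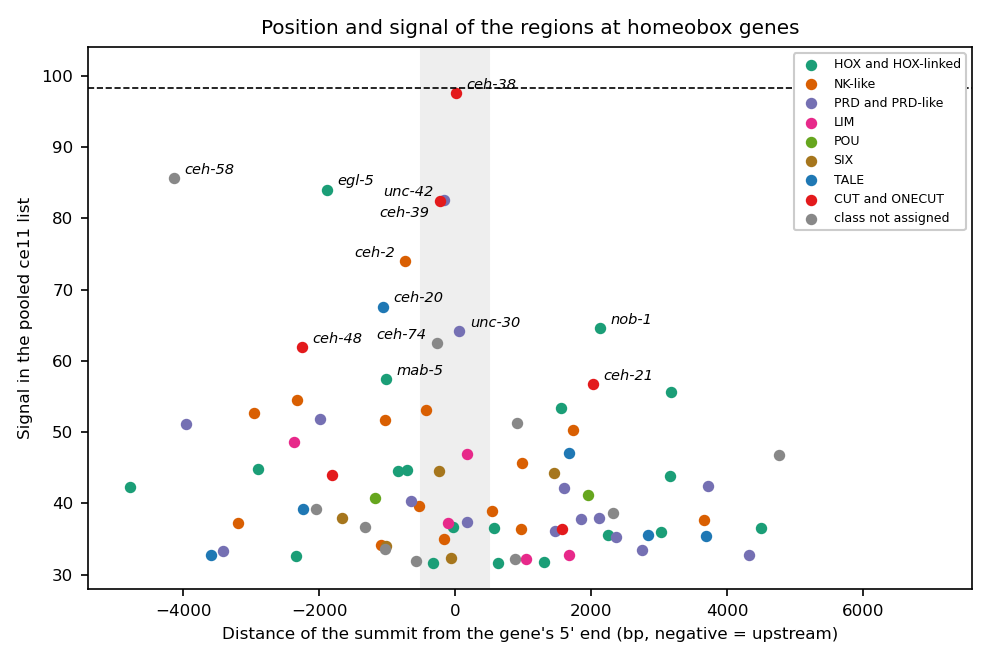
Pooled signal (y axis) of the 82 homeobox regions against the distance of the summit from the gene's 5′ end (x axis, bp, negative is upstream), coloured by class. Grey shading marks 500 bp on either side of the start and the dashed line the lowest final signal, 98.3; strong regions occur both at the start, as for ceh-38, unc-42 and ceh-39, and far from it, as for ceh-58 at 4140 bp.

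The PNR hexamer AAGTCA was found at weaker homeobox regions. In windows of 151 bp it was present in 8 of 82, or 9.76% (Wilson interval 5.03 to 18.1), against 5.16% of all candidate windows and 3.32% of final ones. The background shares were low in both sets, and the interval for the homeobox regions reaches down to just under that of all candidates. The 8 matches lay in regions of 7 genes, with signals of 31.6 to 47.0, so none was among the strongest regions described above. They are printed here with 10 bases on either side, read on the strand where the hexamer (capitals) lies, because they are the only places where this letter sequence met a homeobox summit. By WBcel235 coordinates they are chrV:4499133-4499158 and chrV:4495229-4495254 at unc-62, both on the minus strand, chrV:9767751-9767776 at unc-42 on the plus strand, chrV:11707018-11707043 at ceh-32 on the plus strand, chrIV:13120784-13120809 at unc-30 on the minus strand, chrV:10675592-10675617 at ceh-22 on the minus strand, chrX:11768374-11768399 at ttx-3 on the minus strand and chrIII:12083643-12083668 at nob-1 on the minus strand.
unc-62 intron: ggagtagaagAAGTCAaacacgaaga
unc-62 upstream: tgcaccggacAAGTCAtacaaatgat
unc-42 intron: ttcgcgcacaAAGTCAagactagtgg
ceh-32 upstream: tatcaatagaAAGTCAtgaagacaac
unc-30 intron: cgttcaaaaaAAGTCAaatctgacct
ceh-22: cgtaaattttAAGTCAtttaataaaa
ttx-3: tttcaaattcAAGTCAtttaaagtgt
nob-1 intron: aaaagatcatAAGTCAattcgcagcc

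The unc-42 match lay 20 bp from the summit of the second, intronic region, and not in the promoter region. Matches at unc-62, 17 and 24 bp from their summits, were in regions found in both replicates, as was that at unc-42. The other 5 regions were found in replicate 1 alone or, for ttx-3, in the pooled list only. The first unc-62 region had the best rank among the 8, at 1804 in replicate 2.

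Of the other letters, AGGTCA and TAATTA were at rates near those of all candidates, and TGATAA and the GA repeat were at higher ones. As for AAGTCA, each interval included the share of all candidates. AGGTCA was in 3 windows, or 3.66%, against 4.19%. TAATTA was in 7, or 8.54%, against 8.11%. TGATAA was in 12, or 14.6%, against 9.35%. The GA repeat was in 18, or 21.95%, against 16.9%. The Wilson intervals of the latter, 8.57 to 23.9% and 14.4 to 32.1%, include the shares of all candidates. Median GC content of the homeobox windows was 42.1%, between 40.4% for all candidates and 47.0% for final windows.

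The 38 homeobox genes without a pooled candidate were looked up in the replicate lists. Of these, 9 had a peak in replicate 1, 14 in replicate 2 and 6 in both, leaving 21 with a peak in neither. The best ranks were 4858 in replicate 1 and 1849 in replicate 2, the latter at ceh-82 and shared with ceh-81. Over the 3 loose lists together 64 of 85 homeobox genes had a peak. The matching shares of all protein-coding genes were not computed for the replicate lists or for the 3 lists together. These counts therefore do not show whether homeobox genes differ from other genes. Most homeobox genes with a candidate had few, with 23 genes at 1 region, 16 at 2, 6 at 3, 1 at 4 and 1 at 5.

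Homeobox genes that the naming rule leaves out were counted in the same way. Of 14 such genes 7 held 16 candidates, and 0 held a final region. All genes held a candidate in 38.4% of cases and a final region in 3.5%. The strongest was at zag-1, a zinc finger homeobox gene that acts in neuron differentiation, 537 bp downstream of its start, with a signal of 65.1 and ranks of 2632 and 2914. By its pooled signal it would stand between nob-1 and ceh-20 among the 85.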

How the data were processed

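FAX-1-GFP ChIP-seq peak lists of 2 replicates, the pooled replicates and the IDR-filtered set were used, on ce11. The deposited signal (column 7) is the authors' enrichment value, with its caller, aligner and depth not given in the sources used here; the deposited −log10 q values were not used to rank. Per the deposited metadata texts, a control was an input to the pooled list. Chromosome lengths fit WBcel235, and genes came from Ensembl release 115. Overlapping rows were merged and represented by their strongest row; 13 mitochondrial regions were left out. A replicate peak or final region counted when it overlapped by at least 1 bp, and rank was 1 plus the rows of greater signal. Summits were given to protein-coding genes by closest 5′ end, up to 5000 bp. ce10 rows were matched by chromosome, width, summit offset and signal (relative tolerance 1e-05), and no position was converted.

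With 1 group and 2 replicates, counts, medians and 95% intervals are given and no test. Members and lists were chosen with earlier results of these data known. Named genes are unc-42, the 20 members of highest pooled signal, members among the 830 strongest rows of either replicate, the 6 Hox genes, the strongest of each class, and genes next to neighbouring final regions; unc-62, ceh-22, ttx-3, zag-1 and others outside this rule were named after their values were seen. ceh-44 and ceh-26 matched no Ensembl symbol. Scripts used Python 3.11.15, scipy 1.17.1, numpy 2.4.6 and matplotlib 3.10.9, and were tested on simulated lists.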

Additional observations from a re-analysis of the deposited data

How the results depend on the processing

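Of 99 values recomputed under 18 other settings, 88 stayed within the spread or within 1.5 times the reported count. Some of these could not change. A count of 0 final regions stays 0 under any stricter rule, and the unc-42 signal stays the same wherever its region is kept. Requiring a summit within 1000 bp of the start left 25 homeobox genes and 27 regions, with a median distance of 422 bp and 51.9% within 500 bp, since this shorter limit removes distant summits. Taking the nearest start among genes of all biotypes left 53 regions, at a median distance of 1038 bp; with any transcript's 5′ end the median was 1069.5 bp. The stronger 50% of the pooled list left 31 genes and 41 regions, with a median signal of 51.3. In place of the 0 regions in the final list, 1 overlapped the strongest 830 rows of replicate 1, 1 those of replicate 2, and 1, at ceh-38, was matched in the ce10 final list. The ce10 match, ceh-44 and the setting without Hox genes were added after seeing the data. At the tolerance of 1e-05, 66 of 82 regions had 1 ce10 match, 2 had more and 14 none; at 1e-04 the numbers were 40, 41 and 1, with ceh-38 again the 1 final match. Without replicate 1 or 2, from the other replicate's own list, 50 to 56 genes and 94 to 99 regions were found, with 0 final. No paired analysis was possible because there is 1 group. The number of reads behind each signal is not known, so weak candidates cannot be separated from background.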
